A study of Rattus norvegicus with 6 samples.

Results

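The genes of the proteasome were examined in kidney RNA of SJG-treated diabetic rats and of diabetic rats given saline. The members were all genes whose symbol begins with Psma, Psmb, Psmc, Psmd, Psme, Psmf or Psmg followed by a digit, without Psmb8, Psmb9 and Psmb10. This gave 45 of the 18166 genes with a transcript cluster (the probe set for a whole transcript) of their own. They comprised 14 genes of the core particle, 23 genes of the caps that sit on the core, 3 assembly factors and 5 entries whose symbol carries further letters. Psma3, Psma8, Psmd10, Psme3 and Psmg3 have no transcript cluster of their own under these rules and were not analysed here.

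Both groups were male Sprague Dawley rats made diabetic with streptozotocin, which destroys the insulin-producing cells of the pancreas, and the study's summary adds a high-fat diet. The SJG group (3 arrays) received Shenqi Jiangtang Granule, a mixture of herbs, by mouth, and the diabetic group (3 arrays) received saline. The study gave SJG at a low and at a high dose. The paper describes its array comparison for the high-dose group, and the sample titles name no dose. All samples are labelled as 17 weeks of age and as kidney, which the methods narrow to cortex. Arrays of rats without diabetes were not analysed here, so every value below compares diabetic rats with and without SJG. The labels number the samples without naming animals, so the p-values describe how far these arrays scatter, and some of that scatter may be technical. Each title also holds a bracketed code whose number is shared within a group and differs between groups, and its meaning is not stated, so treatment and code number cannot be told apart.

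All 6 listed markers of the proximal tubule, all 3 measured markers of the podocyte, all 3 of the thick limb and distal convoluted tubule and all 3 of the collecting duct lay above the median gene in every array, which fits the kidney label. Of 8 macrophage markers, 5 passed the thresholds given below as lower with SJG, with summed log2 signals of 48.9 to 50.4 in SJG arrays and 49.9 to 59.7 in diabetic arrays. Both measured red cell markers passed as higher (sums of 16.2 to 18.0 with SJG and 12.3 to 15.5 without), and so did 1 of 4 adipocyte markers (23.2 to 27.3 with SJG and 20.9 to 22.9 without). The sums for the thick limb and distal convoluted tubule did not overlap either (32.6 to 33.2 with SJG and 32.0 to 32.5 without), although 0 of 3 markers passed. Those of the proximal tubule, podocyte and collecting duct overlapped. In a piece of tissue, fewer cells of a type and less RNA per cell cannot be told apart. Across all genes, 565 passed, which became 982 without SJG replicate 1 and 1449 without diabetic replicate 3.

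The proteasome is the protein-cutting machine of the cytosol and nucleus that removes proteins tagged with ubiquitin. Its core is a barrel of stacked rings, with alpha subunits (Psma genes) at the gates and beta subunits (Psmb genes) lining the chamber, where Psmb5, Psmb6 and Psmb7 encode the cutting sites. A cap of ATPase subunits (Psmc) and non-ATPase subunits (Psmd) recognises, unfolds and feeds in the tagged protein. Other caps (Psme) open the gate without ubiquitin, Psmf1 encodes an inhibitor, and Psmg genes encode chaperones that build the barrel. When proteasome activity is short, mammalian cells raise the genes of the standard subunits together through the transcription factor NRF1, encoded by Nfe2l1. In kidney tubules the proteasome clears damaged and oxidised proteins.

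No proteasome gene passed the test between SJG and diabetic kidneys. Of the 45 genes, 0 passed both limits used by the study, a p below 0.05 without adjustment together with more than a 1.5-fold change (limma). In this fit 3.11% of all genes tested passed, 0.991% as higher and 2.12% as lower in SJG rats. The paper, which names no array test, reports fewer genes at these limits, in near-equal numbers each way. The count and its balance depend on the test, as an unmoderated test gave 153 genes, 76 higher and 77 lower. At an unadjusted p under 0.05 alone the count of members was also 0 with limma, against 6.24% of all genes (2.64% higher and 3.60% lower). It was 0 as well with the unmoderated test of each gene on its own. The lowest adjusted p among the members was 0.772 (limma, Benjamini-Hochberg over all genes). Over all genes tested the lowest was 0.152 in the same fit, so no gene of any kind had an adjusted p under 0.05. Psma6-ps1, a dim pseudogene entry, was the member that passed both thresholds without SJG replicate 1 and also without diabetic replicate 3, and without SJG replicate 2 Psmb7 and Psmc2 had an unadjusted p under 0.05 (limma).

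The differences were small in size as well. Over the 40 genes of the core, caps and assembly factors, the log2 fold changes (SJG minus diabetic) lay between -0.36 and 0.34, with a median of 0.06 and 25 of 40 positive, and over all genes the median was 0.00. Without SJG replicate 3 or without diabetic replicate 1, 20 of the 40 were positive and the median was 0.00. Without SJG replicate 2, 32 were positive and the median was 0.15, and with quantile normalization 32 were positive. The median size without sign was 0.13 for these 40 genes and 0.16 for all genes. The 95% intervals of all 40 lay between -0.89 and 0.81, that is, within a 2-fold change in either direction, which held for 92.3% of all genes. For 23 of the 40 the interval also stayed within a 1.5-fold change, and for the other 17 a change of that size could not be told from none with 3 arrays per group. Of the 45 members, 41 had a mean signal above that of the median gene, and Psmb3, Psmb11, Psmb3l2 and Psma6-ps1 did not.

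**Figure D1:**
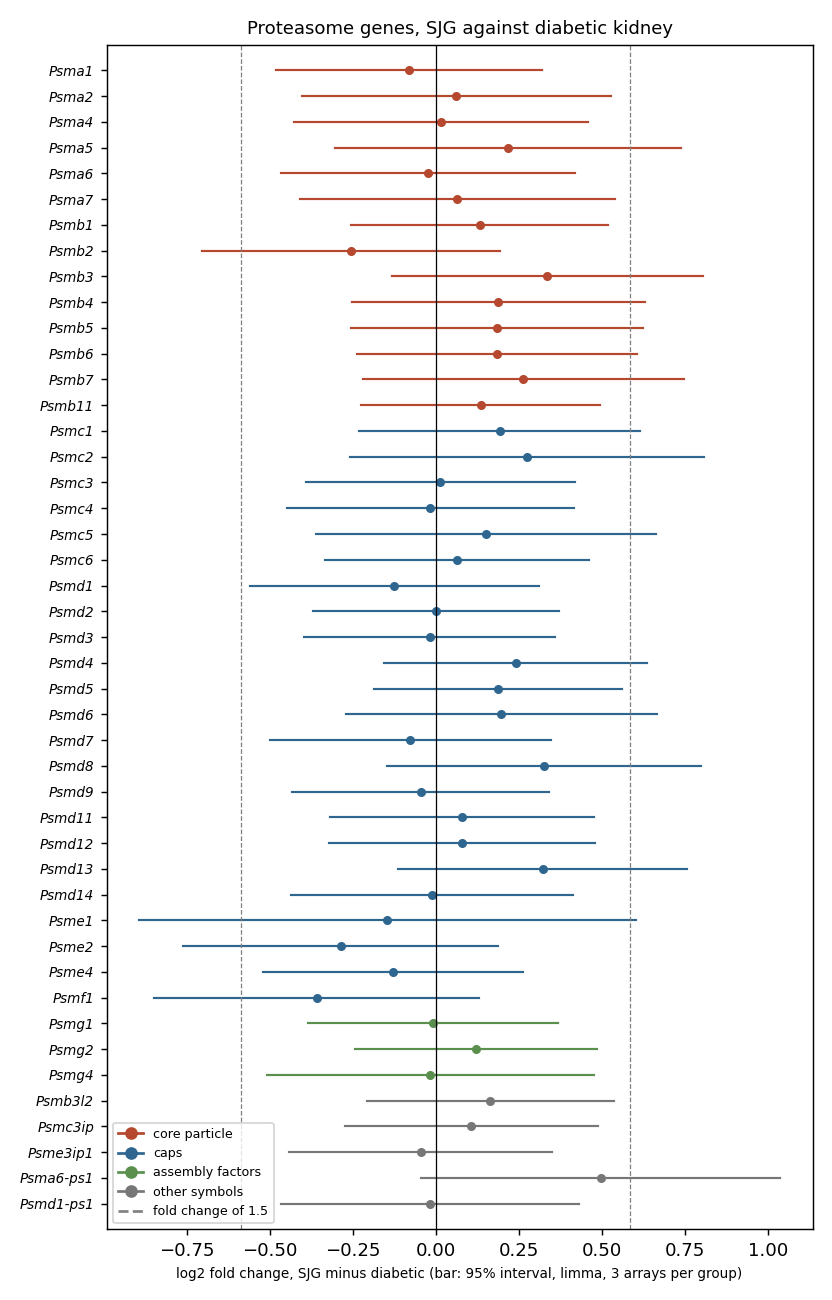
Log2 fold change (SJG minus diabetic) of the 45 proteasome genes, one row per gene. Points are limma estimates from 3 arrays per group, bars are 95% intervals, colours mark core, caps, assembly factors and other symbols, and dashed lines mark a 1.5-fold change. Every bar crosses 0.

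Among the groups of subunits the beta ring lay farthest above 0, although none of its genes passed. Of its 8 genes, 7 had a positive log2 fold change, with a median of 0.18, and 50.3% of all genes had a positive one. The share was also high in the ATPase ring (5 of 6) and among the 72 genes of the mitochondrial ribosome (75%). Psmb3 and Psmb11 were dimmer than the median gene, and with the filter at the median signal 5 beta genes were positive and 1 negative. The median of the beta ring lay between 0.08 (without diabetic replicate 1) and 0.22 (without SJG replicate 2) when each array was left out in turn, with 7 of 8 genes positive each time. Proteasome genes varied together from array to array, as described below, so these 8 are not independent observations. The mean log2 signal of the ring was 7.95, 7.71 and 8.01 with SJG and 7.66, 7.80 and 7.78 in diabetic rats. These groups overlapped, and the difference of 0.15 was smaller than the range of 0.30 among SJG arrays.

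Psmb5, which encodes the subunit that cuts after bulky hydrophobic residues, had log2 signals of 7.89, 7.57 and 8.20 with SJG (replicates 1, 2 and 3, the order used throughout) and of 7.54, 7.72 and 7.85 in diabetic rats. The groups overlapped, with SJG replicate 2 below all diabetic arrays except the first. The means were 7.89 ± 0.32 with SJG and 7.70 ± 0.15 in diabetic rats (SD, n = 3 arrays each), a log2 fold change of 0.18 ± 0.200 (limma estimate ± standard error, adjusted p = 0.868). It was 0.03 without SJG replicate 3 and 0.34 without SJG replicate 2.

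Psmb6 encodes the subunit that cuts after acidic residues. Its log2 signals were 9.03, 9.13 and 9.27 with SJG and 8.69, 8.93 and 9.26 in diabetic rats, so diabetic replicate 3 lay just under the highest SJG array and above the other SJG arrays. The log2 fold change was 0.18 ± 0.191 (limma estimate ± standard error, adjusted p = 0.864), which was 0.05 without diabetic replicate 1 and 0.33 without diabetic replicate 3. A second, dimmer transcript cluster of Psmb6 had 8.12, 8.06 and 8.36 with SJG and 7.48, 7.89 and 8.35 in diabetic rats. Both clusters of this gene differed in the same direction, by 0.18 and 0.28.

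Psmb7 encodes the subunit that cuts after basic residues, and its log2 signals were 9.68, 8.89 and 9.62 with SJG and 9.15, 9.09 and 9.16 in diabetic rats. The diabetic arrays lay close together, above the low second SJG array and below both other SJG arrays. The log2 fold change was 0.26 ± 0.219 (limma estimate ± standard error, adjusted p = 0.836), and it was 0.52 without SJG replicate 2 and 0.12 without SJG replicate 1. The largest positive value in the core was that of Psmb3, a structural beta subunit, with 5.74, 5.45 and 6.04 with SJG and 5.56, 5.57 and 5.08 in diabetic rats. Its log2 fold change was 0.34 (95% interval -0.13 to 0.80, limma adjusted p = 0.790), and the groups overlapped. It was 0.18 without diabetic replicate 3 and 0.48 without SJG replicate 2.

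Psmb2, another structural subunit of the same ring, was the 1 beta gene with a lower mean in SJG rats. Its log2 signals were 9.22, 8.78 and 9.0 with SJG and 9.38, 9.47 and 8.91 in diabetic rats. Diabetic replicates 1 and 2 lay above all SJG arrays, and replicate 3 lay inside the SJG range. The log2 fold change was -0.25 (95% interval -0.70 to 0.19, limma adjusted p = 0.828), and it stayed negative with each array left out, from -0.42 to -0.14. Psmb1 and Psmb4 had log2 fold changes of 0.13 and 0.19. Psmb11, the beta subunit of the thymus proteasome, had signals of 4.02 to 4.31 in all 6 arrays.

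The alpha ring, through whose centre proteins enter, had values on both sides of 0. The log2 fold changes of its 6 measured genes ranged from -0.08 (Psma1) to 0.22 (Psma5), with a median of 0.04. The median was -0.07 without SJG replicate 1, without diabetic replicate 1 it was also -0.07, and it was -0.04 without SJG replicate 3. Psma5 had 7.60, 7.96 and 7.86 with SJG and 7.06, 7.71 and 7.98 in diabetic rats, so the spread of the diabetic arrays covered the SJG arrays.

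The promoters of core genes are shown because NRF1 acts on these genes through the antioxidant response element, whose core is TGACNNNGC. The 100 bases before the start site, taken from RefSeq on build GRCr8, are given 5′ to 3′ on the strand of the gene, for the catalytic subunits and the beta subunit that hold a match. Capitals mark the match.
Psmb5 (chr15:32047380-32047479, minus strand): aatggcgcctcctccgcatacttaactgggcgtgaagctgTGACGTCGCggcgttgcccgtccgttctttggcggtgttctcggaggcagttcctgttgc
Psmb6 (chr10:55737788-55737887, plus strand): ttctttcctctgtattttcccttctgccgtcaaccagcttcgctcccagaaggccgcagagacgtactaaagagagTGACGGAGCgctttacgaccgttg
Psmb2 (chr5:144254958-144255057, plus strand): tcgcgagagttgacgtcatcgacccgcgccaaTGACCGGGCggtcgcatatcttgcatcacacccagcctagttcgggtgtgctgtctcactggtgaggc
The match began 60 bases before the start in Psmb5, 24 before it in Psmb6 and 68 before it in Psmb2. In Psmb2 it overlaps a match to CCAAT and a match to GGGCGG. Psmb5 and Psmb6 had a higher mean with SJG and Psmb2 a lower one, and none of them passed the test. Of the 45 members, 37 have a promoter window in the table (250 bases before to 50 after the start). TGACNNNGC, searched on both strands, occurred in 7 of these 37 (18.9%), in 3 of the 12 core genes and 4 of the 20 cap genes, and in 12.2% of all windows. CCAAT, the NF-Y motif, occurred in 17 (45.9%) against 37.7% of all windows. GGGCGG, the Sp1 motif, occurred in 26 (70.3%) against 34.9% of all windows. All windows means 1 for each of 27457 genes, and windows matched for signal or base composition were not compared. A match in these letters is a description of the sequence and not a binding site.

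Nfe2l1 itself did not pass, with log2 signals of 7.97, 7.89 and 7.94 in SJG rats and 7.86, 8.07 and 7.92 in diabetic rats. The log2 fold change was -0.02 (95% interval -0.37 to 0.34, limma adjusted p = 0.988), and its sign turned with quantile normalization (0.03). NRF1 is set free by the protease of Ddi2 and the sugar-removing enzyme of Ngly1, whose log2 fold changes were 0.19 and 0.25 without passing. Nfe2l2, which encodes the related factor NRF2, had 9.85, 9.41 and 9.78 with SJG and 10.3, 10.2 and 9.69 in diabetic rats, a log2 fold change of -0.39 (95% interval -0.86 to 0.07, limma adjusted p = 0.772).

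**Figure D2:**
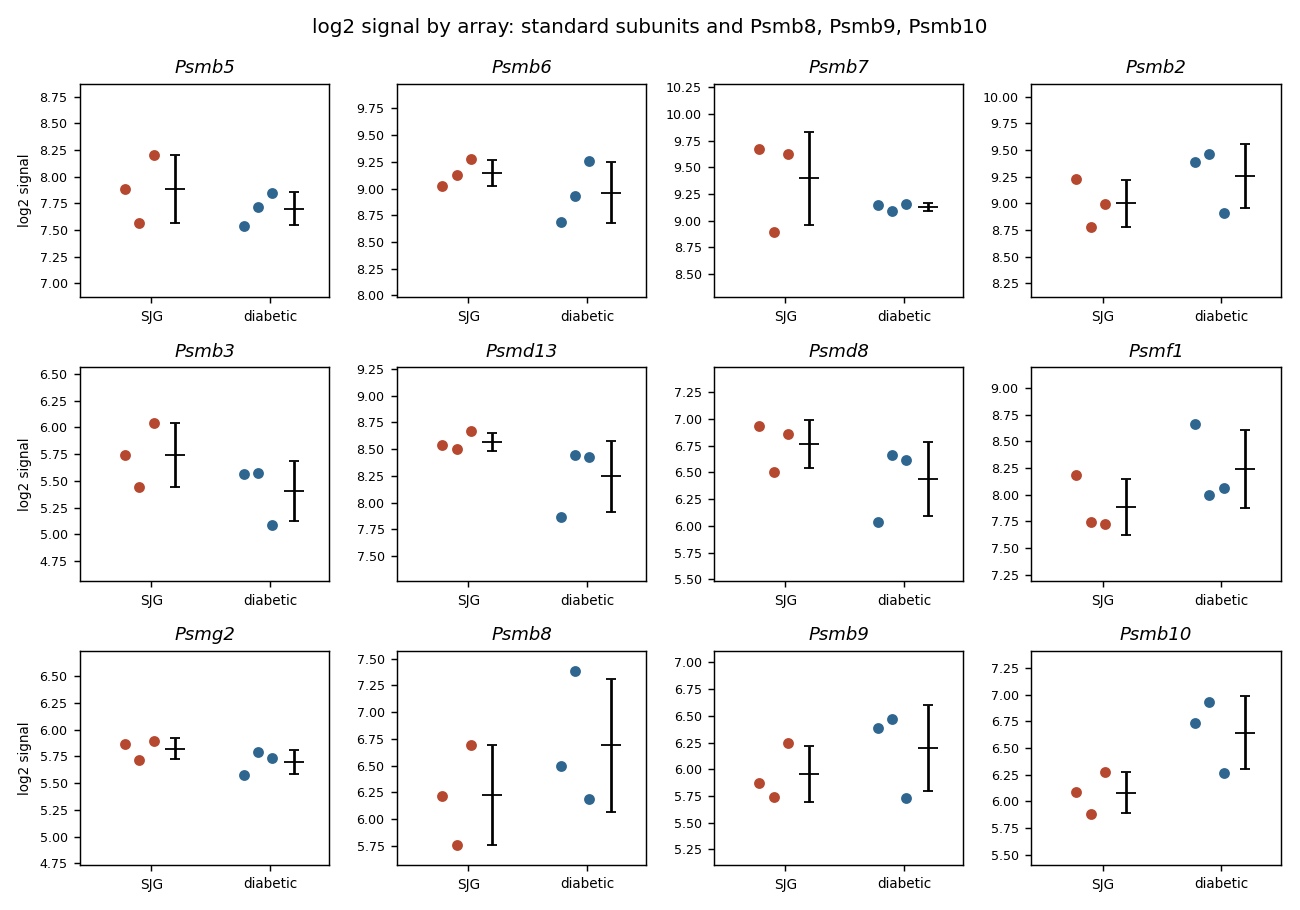
Log2 signal of 9 standard proteasome genes and of Psmb8, Psmb9 and Psmb10 in each array, SJG left and diabetic right, replicates 1 to 3 from left to right. Bars give mean and SD (n = 3), and each panel spans 2 log2 units. The groups overlap in all panels except that of Psmd13.

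No cap gene passed the test either. Of the 23 cap genes, 13 had a positive and 10 a negative log2 fold change, with a median of 0.01. That median was -0.02 without SJG replicate 3, without diabetic replicate 1 it was also -0.02, and it was 0.13 without SJG replicate 2. In the ATPase ring, 5 of 6 genes were positive with a median of 0.11, and without diabetic replicate 1 the median was -0.05. Psmc2 had the widest interval of that ring, -0.26 to 0.81, with 9.02, 8.22 and 9.04 in SJG rats and 8.21, 8.68 and 8.56 in diabetic rats.

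Psmd13, a structural subunit of the lid of the cap, was the 1 member whose groups did not overlap. Its log2 signals were 8.54, 8.50 and 8.67 in SJG rats and 7.86, 8.45 and 8.43 in diabetic rats. All SJG arrays lay above all diabetic arrays, but the gap between the nearest arrays was narrow. The log2 fold change was 0.32 (95% interval -0.11 to 0.76, limma adjusted p = 0.785) and it was 0.13 without diabetic replicate 1 and 0.42 without diabetic replicate 2. The share of members without overlap can be read against all genes, of which 10.5% had groups that did not overlap (5.20% higher and 5.30% lower).

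Psmd8, another lid subunit, had the largest positive value of the caps, with 6.93, 6.51 and 6.86 in SJG rats and 6.03, 6.67 and 6.61 in diabetic rats. Its log2 fold change of 0.33 (95% interval -0.15 to 0.80, limma adjusted p = 0.794) was 0.13 without diabetic replicate 1 and 0.46 without SJG replicate 2. Psmd4, which encodes a ubiquitin receptor, had 7.48, 7.26 and 7.45 with SJG and 6.90, 7.25 and 7.30 in diabetic rats, overlapping narrowly. Psmd14, which encodes the enzyme that strips ubiquitin from the substrate, and the large scaffold genes Psmd1 and Psmd2 had log2 fold changes of -0.01, -0.12 and 0.00. Psmd5 and Psmd9, which encode chaperones that build the base of the cap, had 0.19 and -0.04.

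The activators and the inhibitor had negative values without passing. Psmf1, which encodes the inhibitor PI31, had the lowest log2 fold change of all members, -0.36 (95% interval -0.85 to 0.13, limma adjusted p = 0.789). Its log2 signals were 8.19, 7.74 and 7.72 in SJG rats and 8.66, 8.0 and 8.06 in diabetic rats. The first SJG array lay above diabetic replicates 2 and 3, and the log2 fold change was -0.15 without diabetic replicate 1 and -0.51 without SJG replicate 1.

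Psme1 and Psme2 encode the ring-shaped activator that interferon gamma induces. Psme2 had 8.92, 8.42 and 8.94 with SJG and 9.14, 9.29 and 8.71 in diabetic rats, a log2 fold change of -0.29 (95% interval -0.76 to 0.19, limma adjusted p = 0.815). Psme1 was the most scattered member, with 7.99, 6.97 and 7.05 in SJG rats and 7.93, 7.78 and 6.74 in diabetic rats, so its interval ran from -0.89 to 0.60. Each group had both a high and a low array of this gene. Psme4, which encodes a single-chain activator of the nucleus, had a log2 fold change of -0.13. With an array left out, the median of the 3 activators lay between -0.46 (without diabetic replicate 3) and -0.02 (without SJG replicate 3). Of the 3, 1 was positive without SJG replicate 2, SJG replicate 3, diabetic replicate 1 or diabetic replicate 2.

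The 3 assembly factors encode chaperones of the alpha ring, and their median log2 fold change was -0.01. Psmg2 had 5.87, 5.71 and 5.89 in SJG rats and 5.58, 5.79 and 5.74 in diabetic rats, a log2 fold change of 0.12 (95% interval -0.24 to 0.49, limma adjusted p = 0.896). Psmg4 had 6.30, 6.26 and 6.58 in SJG rats and 6.08, 6.24 and 6.87 in diabetic rats. Its groups overlapped fully, at a log2 fold change of -0.02 (95% interval -0.51 to 0.48, limma adjusted p = 0.991), which was 0.22 without diabetic replicate 3 and 0.04 with quantile normalization. Psmg1 was at -0.01. The median of the 3 genes was -0.11 without diabetic replicate 1 and 0.14 without diabetic replicate 3.

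The 5 entries with further letters are not standard subunits. Psmc3ip, a factor of meiotic recombination, and Psme3ip1, which binds an activator, had log2 fold changes of 0.11 and -0.04, and Psmb3l2 and the pseudogene Psmd1-ps1 had 0.16 and -0.02. The pseudogene entry Psma6-ps1 had 3.50, 3.89 and 4.32 with SJG and 3.07, 3.38 and 3.78 in diabetic rats, at the dim end of the array. Its log2 fold change of 0.50 (95% interval -0.05 to 1.04, limma adjusted p = 0.772) was the highest of the 45, and Psma6 had -0.02. Whether probes match both a subunit gene and its pseudogene cannot be told from the files.

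Within each group, the proteasome genes varied together from array to array. This pattern was noticed in the data and carries no test. The mean log2 signal of the 14 core genes was 8.40, 8.12 and 8.43 in SJG rats and 8.06, 8.32 and 8.27 in diabetic rats. SJG replicate 2 and diabetic replicate 1 were the low arrays. The means over these arrays were 8.32 ± 0.17 with SJG and 8.22 ± 0.14 in diabetic rats (SD, n = 3 arrays each), so the difference of 0.10 was smaller than the range within either group, 0.31 among SJG arrays and 0.26 among diabetic arrays. The 23 cap genes had means of 8.22, 7.89 and 8.14 with SJG and 7.93, 8.16 and 8.04 in diabetic rats, with the same low arrays.

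SJG replicate 2 was the lowest SJG array in 37 of the 45 genes (82.2%), against 43.3% of all genes. Diabetic replicate 1 was the lowest diabetic array in 29 (64.4%), against 29.8% of all genes. In 25 members (55.6%) both statements held, among them all 6 ATPase genes and all 3 assembly factors, and in 14.8% of all genes. Both held in 6 of the 14 core genes and in 8 of the 13 non-ATPase genes. Of the 3 activators and the inhibitor, 0 had both arrays lowest, and in Psmf1 diabetic replicate 1 was the highest array. Averaged over all genes the arrays differed little, at 5.66, 5.63 and 5.68 with SJG and 5.68, 5.68 and 5.65 in diabetic rats.

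The same arrays were low for another large complex and for a list that is not 1 complex. Of 72 genes of the mitochondrial ribosome, 79.2% had SJG replicate 2 lowest, 62.5% had diabetic replicate 1 lowest and 45.8% had both, at a median log2 fold change of 0.11. For the 22 other genes of the ubiquitin-proteasome pathway described below, these shares were 81.8%, 50% and 45.5%, with a median of -0.12. The shares over all genes include dim genes, whereas 41 of the 45 members lay above the median gene. Genes of matched signal were not compared. A further list took the 202 entries whose symbol begins with Rpl or Rps. It mixes cytosolic ribosomal proteins with pseudogenes and kinases, whose number was not counted. The shares in this list, in the same order, were 51.0%, 34.7% and 19.3%, with a median of 0.02. Its mean log2 signal was 6.43 with SJG, against 7.33 for the mitochondrial ribosome. SJG replicate 2 also had the highest sum of adipocyte markers, 27.3 against 23.2 in each of the other SJG arrays. In diabetic replicate 1 that sum was likewise the highest of its group, 22.9 against 20.9 and 22.3. The sums of red cell markers went opposite ways in these arrays. SJG replicate 2 had the highest of its group, 18.0 against 16.3 and 16.2. Diabetic replicate 1 had the lowest of its group, 12.3 against 14.9 and 15.5. Their part in the pattern was not tested.

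**Figure D3:**
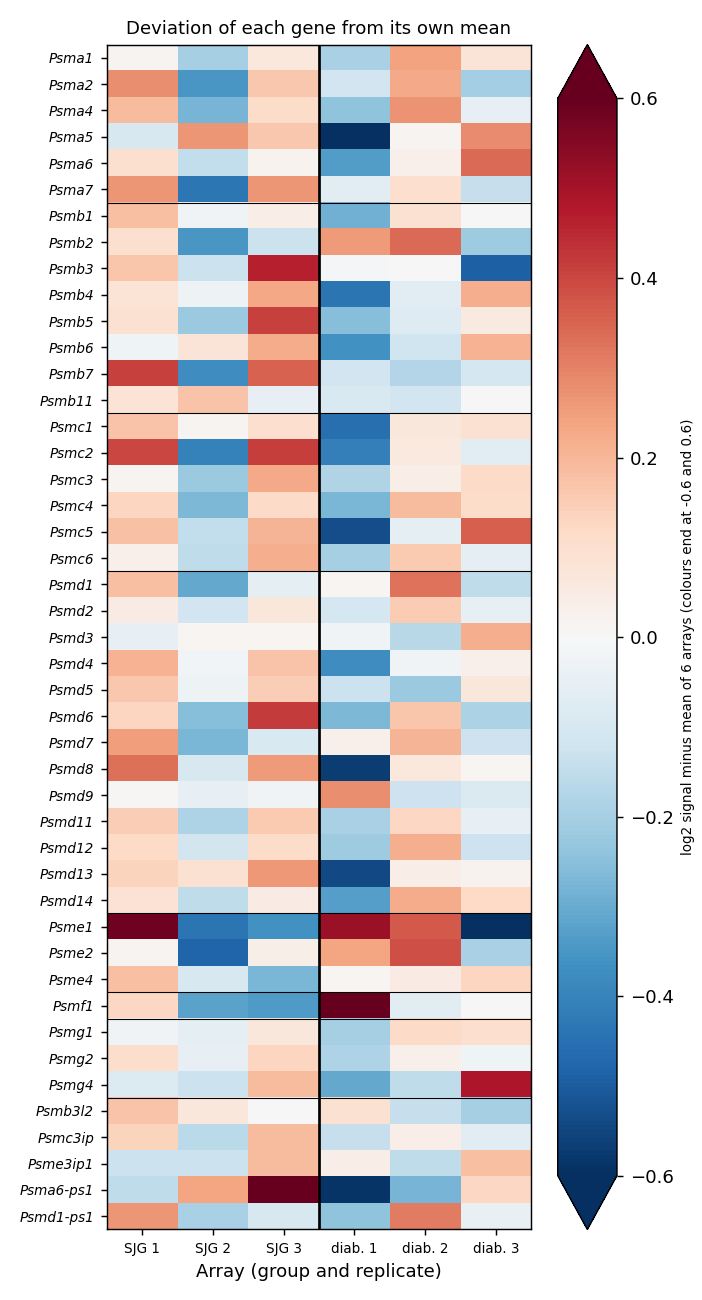
Deviation of each of the 45 genes (rows) from its own mean over 6 arrays (columns, SJG left of the line, diabetic right), in log2 units, with red above and blue below the mean. SJG replicate 2 and diabetic replicate 1 are blue for most subunits, and Psmf1 is red in diabetic replicate 1.

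**Figure D4:**
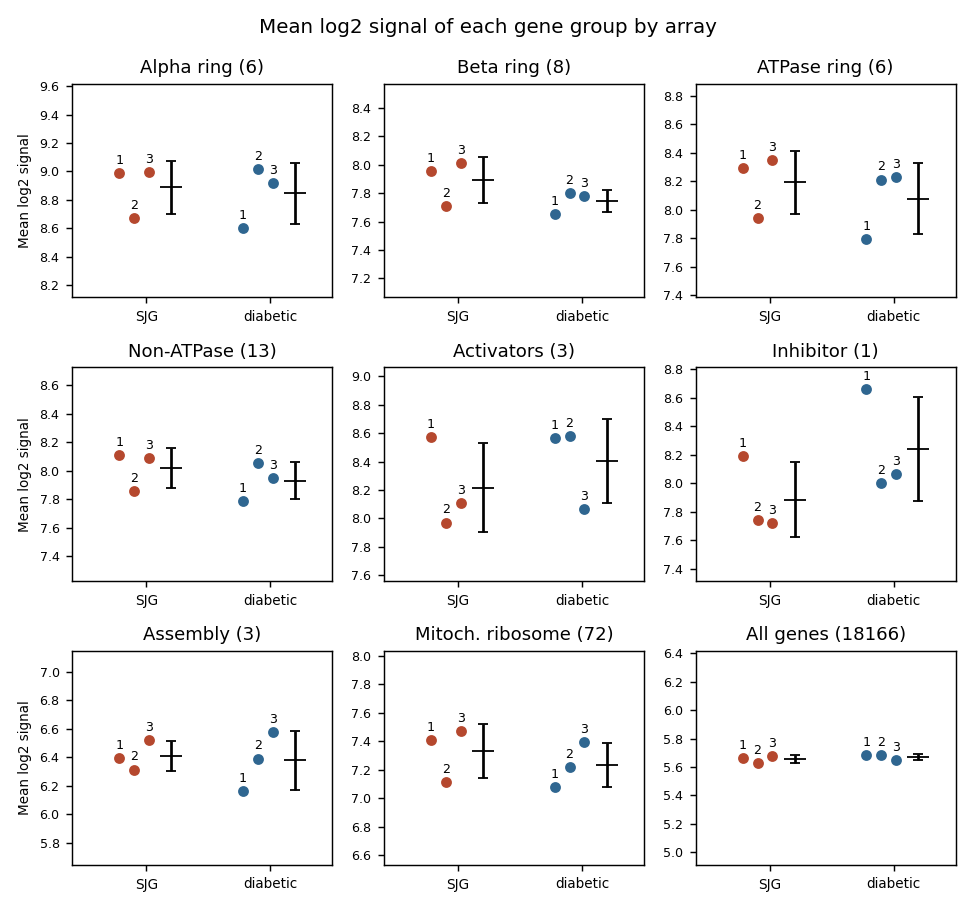
Mean log2 signal of each group of genes in every array, with the replicate number beside each point and mean and SD (n = 3) at the side. Each panel spans 1.5 log2 units, and SJG replicate 2 and diabetic replicate 1 are low in the alpha, beta, ATPase and non-ATPase panels.

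Of 30 other genes of the ubiquitin-proteasome pathway, 22 had a transcript cluster of their own and 0 passed the thresholds (limma). At an unadjusted p under 0.05 there was 1 of 22, against 6.24% of all genes. It was Zfand5, which encodes a protein that stimulates the proteasome in wasting muscle. Its log2 signals were 8.47, 8.16 and 8.28 in SJG rats and 8.55, 9.0 and 8.60 in diabetic rats, without overlap. The log2 fold change was -0.41 (95% interval from -0.83 to just below 0, limma adjusted p = 0.772), and it ranged from -0.50 (without SJG replicate 1) to -0.27 (without diabetic replicate 2). The unadjusted p of 0.0498 rose above 0.05 without SJG replicate 2, SJG replicate 3 or diabetic replicate 2, in the unmoderated test, with median centring and with the replicate block. The median over the 22 genes was -0.12, with 7 positive and 15 negative.

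Some of these genes encode parts of the machine that the symbols do not show. Adrm1, a ubiquitin receptor of the cap, had 8.67, 8.59 and 8.37 with SJG and 9.35, 8.58 and 8.80 in diabetic rats, a log2 fold change of -0.37 (95% interval -0.84 to 0.11, limma adjusted p = 0.782), which was -0.15 without diabetic replicate 1 and -0.53 without diabetic replicate 2, where its unadjusted p was under 0.05. Sem1, the smallest cap subunit, had 7.84, 8.35 and 7.63 with SJG and 7.49, 7.70 and 8.47 in diabetic rats. Pomp, which encodes a chaperone of the beta ring, had 8.66, 8.56 and 8.99 with SJG and 8.31, 8.91 and 8.91 in diabetic rats. The groups overlapped for both, and their log2 fold changes of 0.05 and 0.02 turned in sign when single arrays were left out. The ubiquitin-activating enzymes Uba1 and Uba6 had -0.13 and -0.34, and the unfolding enzyme gene Vcp had 0.07.

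Psmb8, Psmb9 and Psmb10 encode the cutting subunits that replace the standard ones in the immunoproteasome of immune and interferon-exposed cells. Their log2 fold changes were -0.47, -0.25 and -0.56 with 0 of 3 past both thresholds, and Psmb10 was past p alone (unadjusted p = 0.0206, limma adjusted p = 0.758). These values moved both ways with single arrays. Psmb10 passed both thresholds without SJG replicate 3 (-0.66) and without diabetic replicate 3 (-0.75), as did Psmb8 without diabetic replicate 3 (-0.71). The Psmb10 difference missed p under 0.05 without SJG replicate 2 (-0.46), diabetic replicate 1 (-0.52) or diabetic replicate 2 (-0.42), and in the unmoderated test. Without diabetic replicate 2, Psmb8 was at -0.12 and Psmb9 at -0.11, and without diabetic replicate 3 Psmb9 was at -0.48. Psmb10 had 6.09, 5.88 and 6.27 in SJG rats and 6.74, 6.93 and 6.27 in diabetic rats, the last level with the highest SJG array. The markers of macrophages, cells that carry these subunits, had their lowest diabetic sum in the same array, diabetic replicate 3 (49.9, against 56.4 and 59.7), and so had the T cell markers (16.2, against 17.8 and 19.4), although 0 of 4 T cell markers lay above the median gene in all arrays. The part of either in these values was not tested. Whether the difference of these genes was other than that of Psmb5, Psmb6 and Psmb7 was not tested.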

How the data were processed

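RNA of kidney cortex was hybridised to Affymetrix Rat Gene 2.0 ST arrays, 3 for SJG-treated and 3 for diabetic rats. For each array the authors deposited a value on a log scale for every transcript cluster, treated here as log2 because the highest is 13.7, below the limit of a 16-bit scanner. The software and the normalization behind these values are not named in the paper or labels used here. They were analysed without further scaling (array medians 4.68 to 4.88). Precision is limited by how few arrays there are.

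Transcript clusters were named through the platform annotation, updated by gene number against RefSeq genes of GRCr8 (18394 of 18511 with 1 gene matched). Those with several genes (575) or none (17599) were not named. The brightest cluster stood for a gene. Groups were compared with limma 3.58.1 in R 4.3.3 (lmFit and eBayes, prior degrees of freedom 6.94), adjusted by Benjamini-Hochberg over 18166 genes, and the code was tested on simulated data.

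The members and lists were chosen with earlier results of these data known. Values per array are given for members past the thresholds, with an unadjusted p under 0.05 or without overlap, for Psmb5, Psmb6 and Psmb7, and for the largest increase and decrease of core, caps and assembly factors. Outside the members this holds for pathway genes with an unadjusted p under 0.05 and for Nfe2l1, Pomp, Adrm1 and Sem1. Values of other genes were added after they were seen. Alternatives were the unmoderated test, eBayes with trend and robust variances, a filter at the median signal, quantile normalization, median centring, the mean of clusters, a replicate block, a limit of 1.2-fold and the omission of single arrays. Motifs were searched by exact letters on both strands.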

Additional observations from a re-analysis of the deposited data

How the results depend on the processing

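The count of proteasome genes past the thresholds was 0 under all 8 alternatives other than leaving out an array, and 0 to 1 with an array left out. The count at an unadjusted p under 0.05 was 0 to 2 with an array left out and 1 with the replicate block, the dim entry Psma6-ps1. Over all genes the count of 565 became 153 with the unmoderated test, 326 among the genes above the median signal, 1133 at a fold change of 1.2, and 403 (without diabetic replicate 2) to 1449 (without diabetic replicate 3) with an array left out. The replicate numbers showed no sign of pairing, but so few arrays cannot settle whether samples were paired by design. Pairing by the letters of the bracketed codes was not examined. The deviations of same-numbered arrays correlated at -0.02, -0.29 and -0.0013 for numbers 1 to 3, and the block gave 634 genes.

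With an array left out, the median log2 fold change was 0.02 to 0.18 for the core, -0.02 to 0.13 for the caps and -0.11 to 0.14 for the assembly factors. Among the named genes, direction turned in 4, all with values near 0. With quantile normalization Psmg4 was at 0.044 and Nfe2l1 at 0.028. With an array left out Psmg4 ranged from -0.17 to 0.22, Nfe2l1 from -0.059 to 0.043, Pomp from -0.18 to 0.12 and Sem1 from -0.15 to 0.35. With 3 arrays per group, the 95% interval reached past a 1.5-fold change for 17 of the 40 subunit and assembly genes.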
